A study of Mus musculus with 9 samples.

Results

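Dendritic cells that carried a hairpin against JmjD2d and had been given LPS were compared with wild-type dendritic cells that had received neither. The comparison was between 6 of the 9 mouse arrays in the series, 3 per group. It covered 19938 genes, each read by its single-gene probe set with the highest mean. All cells were grown from mouse bone marrow progenitors, expanded in SCF, IL-3 and IL-6 and turned into dendritic cells in GM-CSF, with SCF present at first. The knockdown cells had been infected as progenitors with a retrovirus (pSir-delta U6CHisD) whose hairpin targets the JmjD2d coding sequence, selected in histidinol, and then stimulated with 100 ng/ml LPS for 4 h. The unstimulated wild-type cells were untransduced and had no LPS. The third group was untransduced wild-type cells given the same LPS. Its values are given alongside, and its 3 arrays were in the fit that set the error behind every call. No array of a control hairpin or of unstimulated knockdown cells was analysed here. The groups therefore differed in the stimulus, the hairpin, and the infection and selection at once, and these cannot be told apart in what follows. The labels describe independent cultures, and arrays were paired by their biological replicate number.

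As background, LPS is a cell wall component of Gram-negative bacteria that binds Toll-like receptor 4 with the help of Cd14. The receptor acts through adaptor proteins on NF-kB and on interferon regulatory factors, so that dendritic cells make inflammatory cytokines and interferon-driven genes and change from taking up antigen to showing it to T cells. JmjD2d, the product of Kdm4d, is a demethylase that acts on histone H3 lysine 9, whose methylation marks silent chromatin.

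The targeted gene was read first. Kdm4d gave log2 values of 7.24, 7.65 and 7.62 in unstimulated replicates 1, 2 and 3 and 7.43, 7.11 and 7.40 in the knockdown replicates. The groups overlapped, and the difference of -0.19 (SE 0.14) did not pass the test (limma, adjusted p = 0.507, where 0.05 is the threshold throughout). The LPS-treated wild-type arrays gave 7.79, 7.54 and 7.74, all above the knockdown values, with a difference of -0.37 (adjusted p = 0.24). The Kdm4d values of all groups lay near the array medians over genes, 7.54 to 7.66. Whether the hairpin lowered its target cannot be settled from them. None of the other Kdm4 genes passed against unstimulated cells, with differences of 0.30 for Kdm4a, -0.04 for Kdm4b and 0.10 for Kdm4c.

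Of the 19938 genes, 2846 differed between the LPS-treated knockdown and unstimulated wild-type arrays (14.3%). Higher levels were found for 1121 genes (5.62%) and lower levels for 1725 (8.65%), and at a change of 2-fold or more there were 336 rises (1.69%) and 370 falls (1.86%). All of these calls had the same sign in each of the 3 replicate pairs. The knockdown values lay wholly above or below the unstimulated values in 1021 of the 1121 and 1606 of the 1725, against 12.2% and 15.0% of all genes in each direction. The calls were made from these same values, so both agreements add no separate support. The median difference was 0.69 on the log2 scale for the risen genes, -0.63 for the fallen ones and 0.0124 over all genes. Leaving out single arrays moved these counts: 428 rose and 502 fell without unstimulated replicate 3, 492 and 616 without knockdown replicate 3, 734 and 729 without unstimulated replicate 1, 726 and 875 without knockdown replicate 1, and 798 and 1085 without wild-type LPS replicate 3. With every array centred on its median, the risen genes made up 49.2% of the calls rather than 39.4%, and with quantile normalization 44.8%.

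The 12 largest rises were picked among called genes whose knockdown values lay wholly above the unstimulated ones, so non-overlap came with the choice. They included cytokines, chemokines and interferon-driven genes. Il6, an inflammatory cytokine, gave 5.22, 5.85 and 4.90 in the unstimulated arrays and 12.44, 11.78 and 12.78 in the knockdown arrays. Every knockdown array stood far above every unstimulated one, a difference of 7.01 (SE 0.40, 129-fold, adjusted p = 0.000387). Il12b, the p40 subunit shared by IL-12 and IL-23, went from 7.21, 7.11 and 7.21 to 13.21, 12.03 and 13.38, with no overlap, a rise of 5.70 (SE 0.24, 51.9-fold, adjusted p = 0.000247). Cxcl10, which attracts activated T cells, read 8.47, 9.91 and 7.67 before and 14.04, 14.36 and 14.24 in the treated knockdown cells. Its rise of 5.53 (SE 0.38, adjusted p = 0.000736) left no overlap, and unstimulated replicate 2 was the highest of its group.

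The other large rises were Ifi205 (5.42), Ifit2 (5.06), Cxcl2 (4.93), Ifit1 (4.53), Rsad2 (4.50), Mx2 (4.42), Ptgs2 (4.34), Il1b (4.33) and Cxcl3 (4.25), all log2 differences. Cxcl2 and Cxcl3 attract neutrophils, Ptgs2 is the inducible enzyme of prostaglandin synthesis, and Rsad2 and Mx2 are antiviral proteins. Cxcl3 had the widest spread among these, at 6.60, 10.24 and 6.73 in the unstimulated arrays and 12.17, 11.67 and 12.47 in the knockdown arrays. Unstimulated replicate 2 again stood apart from the others of its group, and the rise had an SE of 0.85 (adjusted p = 0.0206). Ifi205 and the Ifit and Mx genes belong to families of similar sequence, and probes could share signal between their members.

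**Figure D1:**
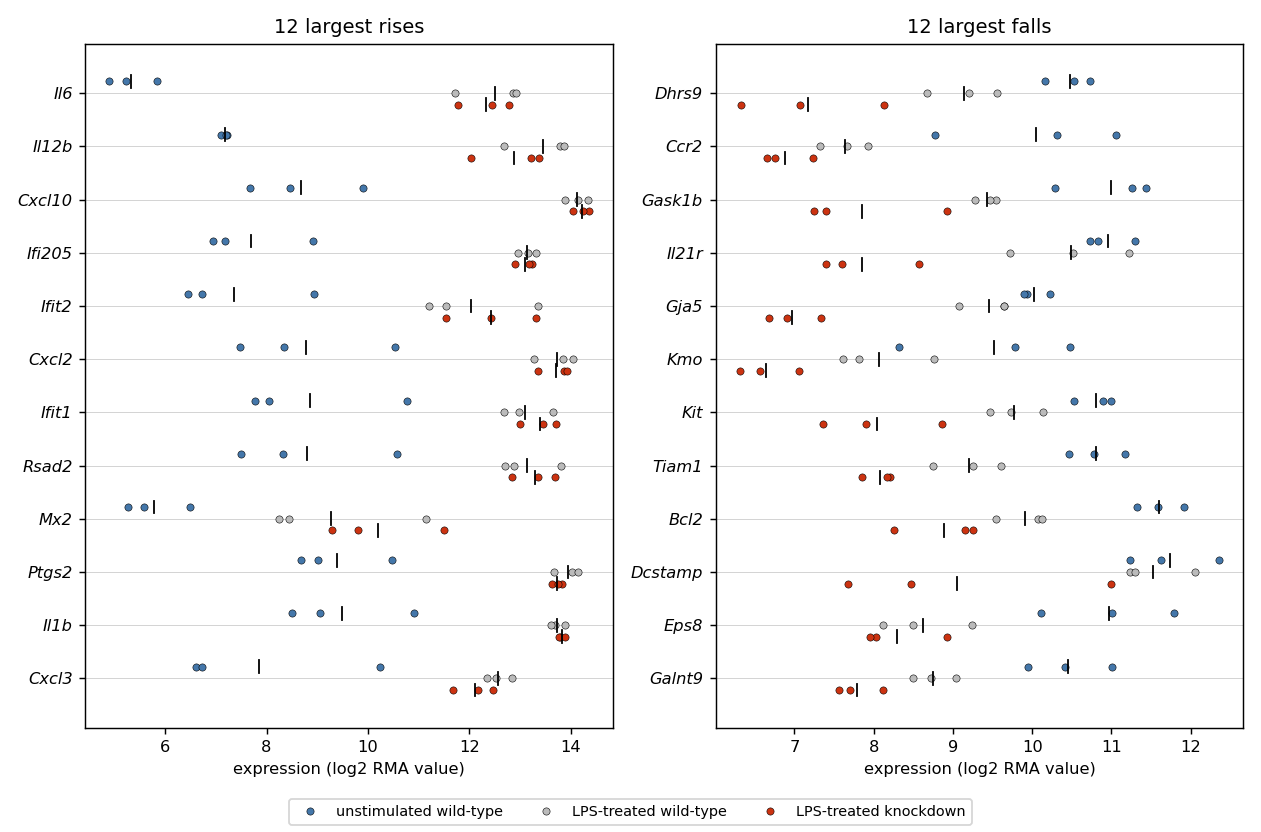
Log2 RMA values (horizontal axis) of the 12 genes with the largest rises (left) and falls (right); each point is 1 array, each black bar a mean of 3 arrays, and colours give the group. The 24 genes were picked among called genes whose red knockdown points do not overlap the blue unstimulated points. The grey wild-type LPS points lie near the red ones for most rises and between red and blue for most falls, and Il6 ranges from 4.90 to 12.91.

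The 12 largest falls, picked in the same way among genes with knockdown values wholly below, included enzymes and receptors. Dhrs9, a retinol and steroid dehydrogenase, gave 10.73, 10.16 and 10.52 in unstimulated and 8.13, 6.33 and 7.07 in knockdown arrays, with no overlap. It fell by 3.30 on the log2 scale (SE 0.37, adjusted p = 0.0031). Ccr2, the receptor that lets monocytes leave the marrow, gave 11.06, 8.78 and 10.31 against 7.23, 6.65 and 6.75, with no overlap and a difference of -3.17 (SE 0.38, adjusted p = 0.00371). Kit, the receptor for SCF, went from 10.89, 11.00 and 10.52 to 8.86, 7.90 and 7.36. It fell by 2.76 (SE 0.21, adjusted p = 0.000985), clear of the spread in both groups.

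Il21r, the IL-21 receptor, was low in all 3 knockdown arrays at 8.57, 7.60 and 7.39, against 11.29, 10.73 and 10.83 (difference -3.10, SE 0.33, adjusted p = 0.0026). Gja5, a gap junction protein, gave 9.93, 9.90 and 10.22 before and 7.34, 6.91 and 6.68 in the treated knockdown cells (difference -3.05, SE 0.23, adjusted p = 0.000928). Bcl2, which holds back cell death, read 11.91, 11.32 and 11.58 and then 9.15, 9.26 and 8.26 (difference -2.72, SE 0.21, adjusted p = 0.00101). Differences for the remaining genes of the 12 were -3.14 for Gask1b, -2.88 for Kmo, an enzyme of tryptophan breakdown, -2.73 for Tiam1, a Rac activator, -2.69 for Dcstamp, a protein of cell fusion, and -2.67 for both Eps8 and Galnt9. Dcstamp was unlike the others in that knockdown replicate 1 (11.00) stayed near the unstimulated values of 12.36, 11.23 and 11.63 while replicates 2 and 3 read 7.67 and 8.47. Without the replicate block its adjusted p was 0.059. An unnamed locus, 1700025G04Rik, fell further than all 12 (difference -3.43, adjusted p = 0.0002475) and was passed over by the naming rule, so it was chosen after its values were seen.

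Promoters of 4 genes of the main groups are shown, each with the short motif that its group's textbook regulator binds in capitals. They are RefSeq windows of GRCm38.p6 from 250 bases before to 50 after the gene start, and each is the most changed called member of its list whose window holds the motif on either strand. The motifs were the NF-kB consensus for Il6, the interferon-stimulated response element (GAAA, any 2 bases, GAAA) for Ifit1, the Y box CTGATTGG of class II genes for H2-Eb1, and the cell cycle homology region TTTGAA for Mki67.
Il6 promoter, chr5:30012864-30013163, plus strand: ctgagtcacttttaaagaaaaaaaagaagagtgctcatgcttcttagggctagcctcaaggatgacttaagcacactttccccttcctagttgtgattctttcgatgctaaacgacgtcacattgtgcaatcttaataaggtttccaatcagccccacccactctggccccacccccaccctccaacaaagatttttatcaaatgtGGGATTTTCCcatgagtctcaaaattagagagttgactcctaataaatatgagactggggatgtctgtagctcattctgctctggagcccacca
Ifit1 promoter, chr19:34640639-34640938, plus strand: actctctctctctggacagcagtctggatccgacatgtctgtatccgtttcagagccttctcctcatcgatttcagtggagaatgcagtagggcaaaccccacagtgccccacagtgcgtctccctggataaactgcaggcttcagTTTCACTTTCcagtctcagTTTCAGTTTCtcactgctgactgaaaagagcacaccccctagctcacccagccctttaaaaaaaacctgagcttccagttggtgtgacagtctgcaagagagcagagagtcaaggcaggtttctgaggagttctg
H2-Eb1 promoter, chr17:34305617-34305916, plus strand: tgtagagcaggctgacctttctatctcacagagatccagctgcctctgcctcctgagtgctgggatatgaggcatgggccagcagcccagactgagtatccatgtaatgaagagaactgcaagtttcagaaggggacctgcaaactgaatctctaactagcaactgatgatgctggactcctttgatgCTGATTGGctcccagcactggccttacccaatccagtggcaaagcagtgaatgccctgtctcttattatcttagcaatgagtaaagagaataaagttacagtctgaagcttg
Mki67 promoter, chr7:135716330-135716629, minus strand: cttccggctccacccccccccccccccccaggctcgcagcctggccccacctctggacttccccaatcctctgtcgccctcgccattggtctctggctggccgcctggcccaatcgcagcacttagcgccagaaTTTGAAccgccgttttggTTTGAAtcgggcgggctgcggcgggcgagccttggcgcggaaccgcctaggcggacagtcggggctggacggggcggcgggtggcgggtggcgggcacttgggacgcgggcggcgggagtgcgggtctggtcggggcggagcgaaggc
The Y box contains the general CCAAT box read on the opposite strand. By symbol, 15614 of the 19938 genes had a window. The NF-kB consensus was in the windows of 10 of the 12 matched genes for NF-kB subunits and inhibitors (83.3%) and of 6 of 17 inflammatory cytokine genes (35.3%), against 11.0% of all measured genes. The interferon element was in 13 of 21 interferon response genes (61.9%) against 3.89%, the Y box in 3 of 8 class II genes (37.5%) against 5.44%, and the cell cycle motif in 11 of 15 mitosis genes (73.3%) against 17.3%. Over the genes called here, the NF-kB consensus was in 15.8% of those that rose and 12.3% of those that fell, and the interferon element in 5.7% and 2.67%. The Y box was in 6.82% and 6.74%, and the cell cycle motif in 17.5% and 13.3%. The Y box was also in 5 of the 15 mitosis genes (33.3%). The list shares count members called or not. Of the 6 cytokine genes with the NF-kB consensus, Il6 rose, Csf1 fell, and Lif, Ifnb1, Ebi3 and Tgfb1 were not called. The windows of the risen Il12b, Il1b, Tnfsf15, Il1a, Il12a, Tnf, Il1f9 and Il18 had none. The cell cycle motif was in the risen Mki67, Bub1b, Ccnb2, Kif11 and Top2a and the uncalled Plk1, Cdk1, Ttk, Aurka, Kif23 and Cenpf. A match describes the letters in the window and was not tested as a site.

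The receptor pathway was read from the membrane inwards. Counts of list members from here on stand against 5.62% higher and 8.65% lower over all genes. The lists were chosen with earlier results of these data known, so these counts describe the lists and add no separate support. Of 17 measured genes of the Toll-like receptor 4 pathway, 8 rose and 1 fell (median difference 0.36). Cd14, the co-receptor, gave 10.05, 11.66 and 10.26 against 12.43, 12.47 and 12.65, a rise of 1.86 (SE 0.35, adjusted p = 0.0165) without overlap. Tlr4 itself read 11.59, 12.20 and 11.84 against 11.47, 11.56 and 11.56 and did not pass (difference -0.34, adjusted p = 0.155). The signalling kinases Ikbke (1.68), Map3k8 (1.18) and Irak2 (0.93) rose. Without unstimulated replicate 1, unstimulated replicate 3 or knockdown replicate 3 the list's count of rises was 3 in each case, without knockdown replicate 1 it was 4, and without wild-type LPS replicate 3 it was 5.

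Genes for NF-kB subunits and their inhibitors rose together: 12 of 14 were higher and 0 were lower, with a median difference of 1.15 against 0.0124 over all genes. Tnfaip3, the ubiquitin-editing enzyme A20 that shuts NF-kB signalling down, gave 9.65, 10.12 and 9.68 in unstimulated and 12.37, 12.47 and 12.50 in knockdown arrays. The groups were far apart, with a rise of 2.63 (SE 0.21, adjusted p = 0.00109). Nfkbia, the inhibitor IkB-alpha, rose by 1.75 (SE 0.16, adjusted p = 0.00155). Among the rises chosen after their values were seen were the inhibitor-like Nfkbiz (3.19) and the subunits Nfkb2 (1.51), Relb (1.04), Rel (0.82) and Rela (0.50). Nfkbid (0.57, adjusted p = 0.155) and Cyld (-0.08, adjusted p = 0.872) did not pass. The count stood at 12 without the replicate block and between 10 and 13 with any 1 array left out.

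Among 26 inflammatory cytokine genes, 14 rose and 1 fell, with a median of 1.59. Beside Il6, Il12b and Il1b, Il27 gave 7.77, 7.96 and 8.05 against 9.91, 10.63 and 10.54, and its rise of 2.43 (SE 0.15, adjusted p = 0.000495) left no overlap. Tnf read 11.20, 11.91 and 11.71 and then 14.01, 13.87 and 13.99, a rise of 2.35 (SE 0.18, adjusted p = 0.00101). The values were tight in the knockdown arrays and somewhat wider in the unstimulated ones. The fall was in Csf1 (-0.50), the macrophage growth factor, which was named after its values were seen. Without unstimulated replicate 3 or without knockdown replicate 3 the list had 8 rises.

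Il23a, the p19 subunit of IL-23, had one of the largest differences that did not pass. It read between 6.75 and 7.08 in the unstimulated arrays and 9.42, 10.17 and 9.40 in knockdown arrays, which did not overlap (difference 2.72, SE 0.73, adjusted p = 0.0541). Its wild-type LPS values of 10.58, 7.58 and 10.84 had the wide spread that enters the shared error of the fit. Others of this kind were Rgs2 (-2.25), Cldn1 (-2.19), Gpr84 (2.18), Saa3 (2.07) and Serpinb1a (2.07). Saa3 ranged from 9.52 to 13.23 over the unstimulated arrays, with replicate 2 the highest, and Cldn1 from 6.14 to 10.70, with replicate 2 the lowest.

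Chemokines split. Of 23 genes, 7 rose and 1 fell, and the median was 0.16. The 1 fall lay below the share over all genes. The count of falls was 0 without unstimulated replicate 3 or knockdown replicate 2 or 3, and 2 without knockdown replicate 1. With the 6 arrays of the 2 groups alone it was also 0. Ccl4, which attracts monocytes and T cells, read 8.77, 8.70 and 8.75 against 12.23, 12.46 and 12.68 (rise 3.71, SE 0.09, adjusted p = 6.29e-05). The related Ccl3 rose less, by 0.53 (SE 0.06, adjusted p = 0.00318), from values of 13.68 to 13.80 to values of 14.24 to 14.27. Cxcl9 rose by 2.82 (SE 0.30, adjusted p = 0.00248), whereas Ppbp, the platelet basic protein, fell by 1.53 (SE 0.31, adjusted p = 0.022). Of 13 chemokine receptors 1 rose and 4 fell, and 2 fell without the replicate block or without unstimulated replicate 1, unstimulated replicate 3 or knockdown replicate 3. Ccrl2, a non-signalling receptor, rose by 3.12 (SE 0.19, adjusted p = 0.000517), and Ccr2, Cxcr4 (-1.13), Ccr1 (-0.95) and Ccr7, described with the maturation genes, fell. The Cxcr4 groups overlapped, at 10.58, 11.49 and 9.65 against 9.31, 9.95 and 9.09, and its adjusted p without the replicate block was 0.22.

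Interferon response genes rose in 21 of 29 cases and fell in 0, with a median of 1.26. With no replicate block the count of rises was 12, and without unstimulated replicate 3 it was 13. Ifit2, which binds viral RNA, gave 6.72, 8.93 and 6.44 against 11.54, 13.31 and 12.42 (rise 5.06, SE 0.27, adjusted p = 0.000367). Gbp5, an interferon-induced GTPase, read 8.98, 8.42 and 8.27 and then 12.08, 12.86 and 12.38 (rise 3.88, SE 0.24, adjusted p = 0.000517). In Ifit2 the arrays numbered 2 were the highest of both groups. Over the list, unstimulated replicate 2 was the highest of its group in 25 of 29 genes and knockdown replicate 2 in 27. The mean over the 29 genes was 8.93, 10.02 and 8.83 in unstimulated replicates 1, 2 and 3 and 10.73, 11.63 and 11.12 in the knockdown replicates, so that only the gap between the groups was shared by all pairs. Ifih1, a sensor of double-stranded RNA, rose by 2.31 (SE 0.12, adjusted p = 0.000358). Oasl2 (0.81), Oas1a (0.61), Ifi35 (0.54) and Bst2 (0.20) did not pass. Bst2 read 9.56, 10.84 and 9.50 against 9.83, 10.62 and 10.04, with overlapping groups.

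**Figure D2:**
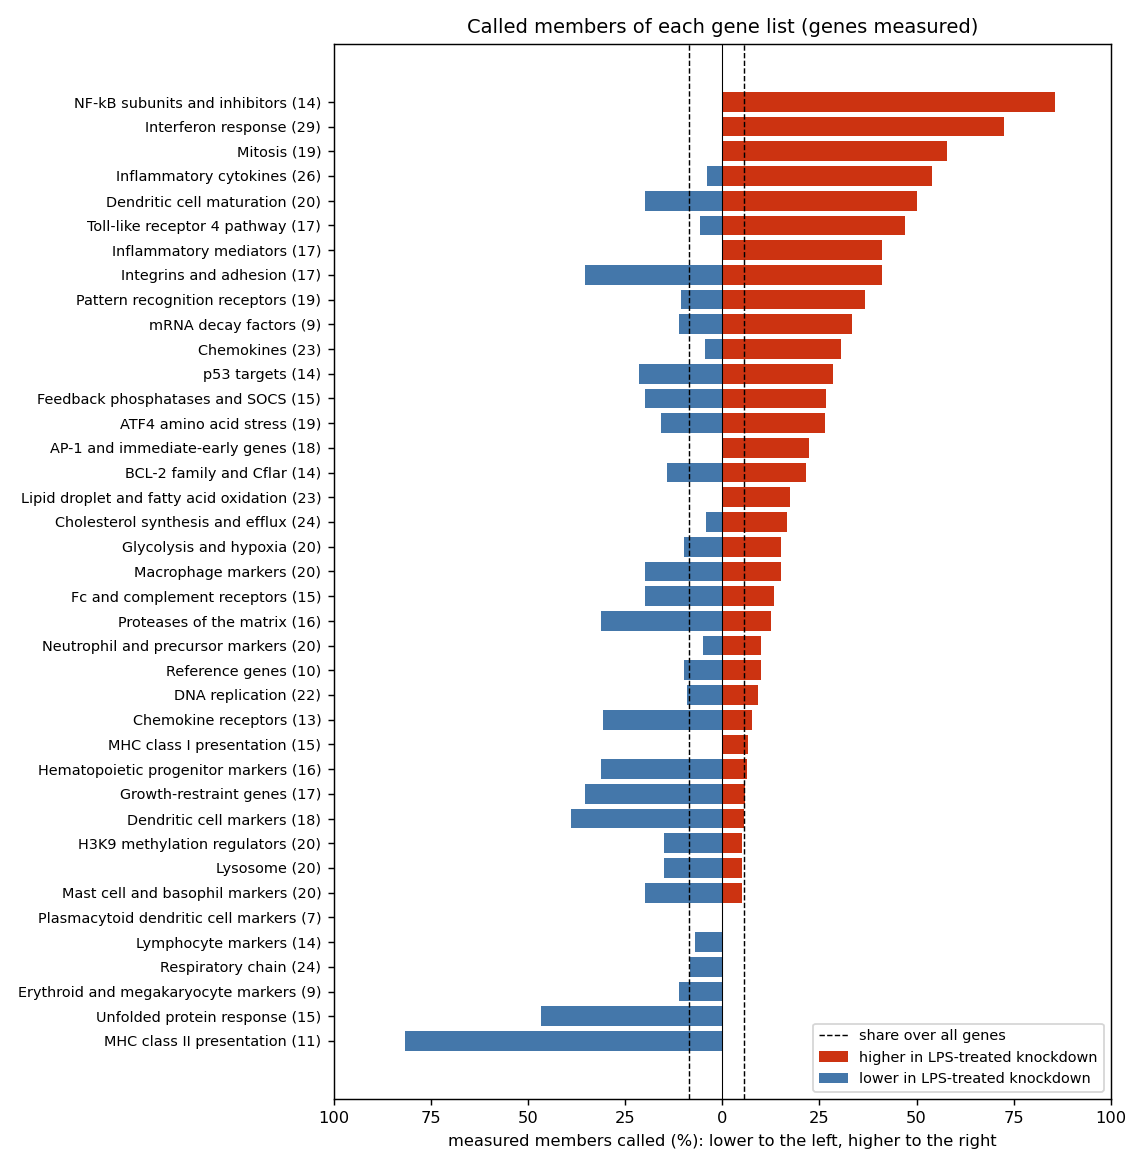
Share of each list's measured members (number in brackets) that were higher (red, right) or lower (blue, left) in the LPS-treated knockdown arrays, in percent; dashed lines mark 5.62% higher and 8.65% lower over all genes. NF-kB, interferon response and mitosis genes have the longest red bars (12 of 14, 21 of 29 and 11 of 19), and class II presentation genes the longest blue one (9 of 11).

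Presentation by MHC class II, the route by which dendritic cells show peptides to CD4 T cells, was lower. Of 11 genes 9 fell and 0 rose, with a median of -1.14. H2-Ab1, a class II beta chain, gave 13.79, 12.75 and 13.46 in unstimulated and 12.79, 10.42 and 10.52 in knockdown arrays (difference -2.09, SE 0.39, adjusted p = 0.0155). Knockdown replicate 1 stood above replicates 2 and 3 and overlapped the unstimulated range. H2-Eb1 followed the same shape, at 13.58, 12.66 and 13.20 against 12.57, 10.60 and 10.52 (difference -1.92, SE 0.34, adjusted p = 0.013), and so did H2-Aa (-1.67, adjusted p = 0.0258).

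The helpers of class II loading moved less. Cd74, the invariant chain, fell by 1.04 (SE 0.24, adjusted p = 0.0347), H2-DMa, which exchanges peptides, by 1.28 (SE 0.11, adjusted p = 0.00127), and Ciita, the transcriptional master regulator of the group, by 1.27 (SE 0.21, adjusted p = 0.0108). Ciita read 10.29, 8.18 and 8.99 against 8.53, 7.61 and 7.50, so its groups overlapped. H2-Oa (-0.39) and Ifi30 (0.13) did not pass. The list's count depended on the pairing and on single arrays: 3 of the 11 were called without the replicate block (H2-Ab1 had adjusted p = 0.063 there, H2-Eb1 0.055), 1 without unstimulated replicate 3, 2 without knockdown replicate 3, 4 without unstimulated replicate 1 and 5 without wild-type LPS replicate 3. Fitting only the 6 arrays of the 2 groups gave 1 call. The mean of the list was 12.4, 11.8 and 12.1 in the unstimulated arrays and 11.7, 10.9 and 10.7 in the knockdown arrays. In these bulk samples fewer cells of a type and less RNA per cell cannot be told apart. Class I genes gave 1 rise, Tap1 (0.94, adjusted p = 0.0144), and no fall in 15.

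Genes of dendritic cell maturation went both ways, with 10 rises and 4 falls in 20 (median 0.55). Cd40, which receives T cell help, gave 8.50, 8.20 and 8.26 against 11.41, 9.90 and 11.34, a rise of 2.56 (SE 0.25, adjusted p = 0.00201) without overlap. Its LPS-treated wild-type mean lay 4.25 above unstimulated. Pdcd1lg2, the inhibitory ligand PD-L2, went from 10.77, 9.73 and 9.81 to 8.60, 7.32 and 6.87. It fell by 2.50 (SE 0.16, adjusted p = 0.000645), and the groups were apart. The costimulatory ligand Cd86 and the lymph node homing receptor Ccr7, both chosen after their values were seen, fell as well. Cd86 read 8.83, 8.04 and 8.66 against 7.82, 7.14 and 6.99 (difference -1.19, SE 0.18, adjusted p = 0.0077), and Ccr7 10.71, 9.25 and 9.18 against 9.75, 7.71 and 7.74 (difference -1.31, SE 0.29, adjusted p = 0.027). The wild-type LPS means of these genes lay above the unstimulated means, by 1.28 for Cd86 and 1.50 for Ccr7. Marcksl1 (2.01) and Marcks (1.22), substrates of protein kinase C that bind actin, rose. Cd80 (-0.24), Cd83 (-0.01) and Tnfsf4 (0.43) did not pass.

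The label of dendritic cells was checked against 18 marker genes, of which 1 rose and 7 fell (median -0.21). Itgax (CD11c) read 13.30, 12.53 and 13.10 in unstimulated and 12.79, 12.31 and 12.29 in knockdown arrays, high in both groups. Flt3, Zbtb46, Xcr1 and Dpp4 are markers of Flt3-dependent and conventional dendritic cells and were chosen after their values were seen. They lay between 6.12 and 7.84 on the unstimulated arrays, near the array medians of 7.57 to 7.61 or below. Some others of the list lay higher there: Id2 gave 13.48, 13.54 and 13.57, Irf8 10.23, 9.53 and 9.91, and Batf3 8.42, 8.32 and 8.34. Irf4, a transcription factor of dendritic cells, gave 10.74, 9.31 and 10.08 against 8.82, 7.06 and 7.11 (difference -2.38, SE 0.18, adjusted p = 0.000985), and Irf8 fell by 1.12 (SE 0.12, adjusted p = 0.00256). The 1 rise was Ly75, the uptake receptor DEC-205 (1.89, chosen after its values were seen). Without the replicate block 4 of the markers were called lower, and 4 were called lower when any of unstimulated replicate 1 or 3 or knockdown replicate 1 or 3 was left out.

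Markers of other cell types were counted as well, where 5.62% of all genes were higher and 8.65% lower. Lists of this size reach such shares with 1 or 2 genes. Of 20 macrophage markers 3 rose and 4 fell, and the mean of the list ranged from 10.2 to 10.6 in unstimulated and from 9.77 to 10.4 in knockdown arrays. Neutrophil and precursor markers gave 2 rises and 1 fall in 20, with ranges of 8.60 to 9.65 and 8.37 to 9.69. Mast cell markers gave 1 rise and 4 falls in 20, progenitor markers 1 and 5 in 16, erythroid and megakaryocyte markers 0 and 1 in 9, lymphocyte markers 0 and 1 in 14, and plasmacytoid markers no call in 7. Without the replicate block, 1 mast cell marker and 3 progenitor markers fell. Without unstimulated replicate 1 or 3 or knockdown replicate 3, macrophage markers gave 1 rise and 2 falls, and without unstimulated replicate 2 they gave 5 rises. Neutrophil and precursor markers gave no rise without unstimulated replicate 3 or knockdown replicate 3 and 4 rises without unstimulated replicate 2. Leaving out single arrays moved mast cell falls to between 1 and 4 and progenitor falls to between 2 and 6. Kit is shared by the dendritic, mast cell and progenitor lists, Ccr2 by the receptor and macrophage lists. Lymphocyte markers stayed at list means of 6.50 to 6.63 across both groups, and Cd79a, of B cells, between 5.00 and 5.31. The part of any of these cells in the results was not tested.

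The macrophage markers that rose included Spic and Vcam1 and those that fell Ccr2 and Trem2 (-0.72, adjusted p = 0.00612), with a median of -0.13 over the list. Spic, the factor of red pulp macrophages, gave 7.13, 7.05 and 8.16 against 11.29, 11.36 and 11.34 (rise 3.88, SE 0.31, adjusted p = 0.00107). Chil3, a chitinase-like secreted protein of the neutrophil and precursor list, read 9.67, 7.14 and 7.42 and then 12.11, 11.42 and 11.81 (rise 3.70, SE 0.59, adjusted p = 0.0096). Vcam1, an adhesion molecule, rose by 1.31 (SE 0.21, adjusted p = 0.00984). In Spic, Chil3 and Vcam1 the knockdown values lay above all unstimulated ones. The mean of their LPS-treated wild-type arrays lay 1.14, 1.38 and 1.33 above unstimulated.

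Pparg, the nuclear receptor that drives fat storage, gave 9.76, 10.19 and 9.94 against 11.54, 12.23 and 11.88 (rise 1.92, SE 0.09, adjusted p = 0.000286), whereas the wild-type LPS mean lay 0.33 below unstimulated. Nr1h3, the sterol sensor LXR-alpha, went from 8.35, 9.01 and 8.84 to 10.73, 10.83 and 11.20 (rise 2.18, SE 0.18, adjusted p = 0.00107). Ch25h, which makes 25-hydroxycholesterol and stood in the list of inflammatory mediators, gave 7.34, 7.18 and 7.77 against 10.76, 10.93 and 11.13 (rise 3.51, SE 0.17, adjusted p = 0.000339). The groups of all 3 were apart. Triglyceride genes Dgat2 (2.31), Dgat1 (0.72) and Plin2 (0.60) rose, making 4 rises and 0 falls in 23 lipid droplet and fatty acid oxidation genes, 2 of them without the replicate block, 1 without unstimulated replicate 3 and 2 without knockdown replicate 3. The median of the list was 0.17, and Lpin1, a phosphatidate phosphatase, did not pass at -1.40 (adjusted p = 0.0957). Fatty acid oxidation itself gave no call in 13 genes. Cholesterol synthesis and efflux gave 4 rises and 1 fall in 24 (median 0.09), led by Nr1h3 and Idi1 (0.83). Without the replicate block there was 1 rise, and Idi1 had an adjusted p of 0.065. Without knockdown replicate 1 or unstimulated replicate 1 or 3 there were 2 rises.

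Of 19 mitosis genes, 11 rose in the knockdown arrays and 0 fell (median 0.79). Mki67, the proliferation antigen, gave 10.04, 9.01 and 8.49 against 11.32, 11.43 and 11.24 (rise 2.15, SE 0.28, adjusted p = 0.00481) with no overlap. Its wild-type LPS mean lay 2.36 above unstimulated, whereas the median of that difference over the list was -0.02. Bub1b, of the spindle checkpoint, read 8.82, 8.76 and 8.00 and then 9.62, 10.52 and 9.93 (rise 1.50, SE 0.21, adjusted p = 0.0064). Nusap1 (1.55) and Ccnb2 (1.26) rose too, and Plk1 (0.79, adjusted p = 0.0723) did not pass. Unstimulated replicate 1 was high for the list, with a mean of 8.60 against 7.58 and 7.53 in replicates 2 and 3, and the knockdown means were 8.97, 8.58 and 8.62. The count was 2 without the replicate block, 4 without unstimulated replicate 3, 5 without knockdown replicate 3 and 7 without wild-type LPS replicate 3. Fitting only the 6 arrays of the 2 groups gave 5 rises. DNA replication genes gave 2 rises and 2 falls in 22 (median -0.04), with Rrm2 the largest at 1.12.

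**Figure D3:**
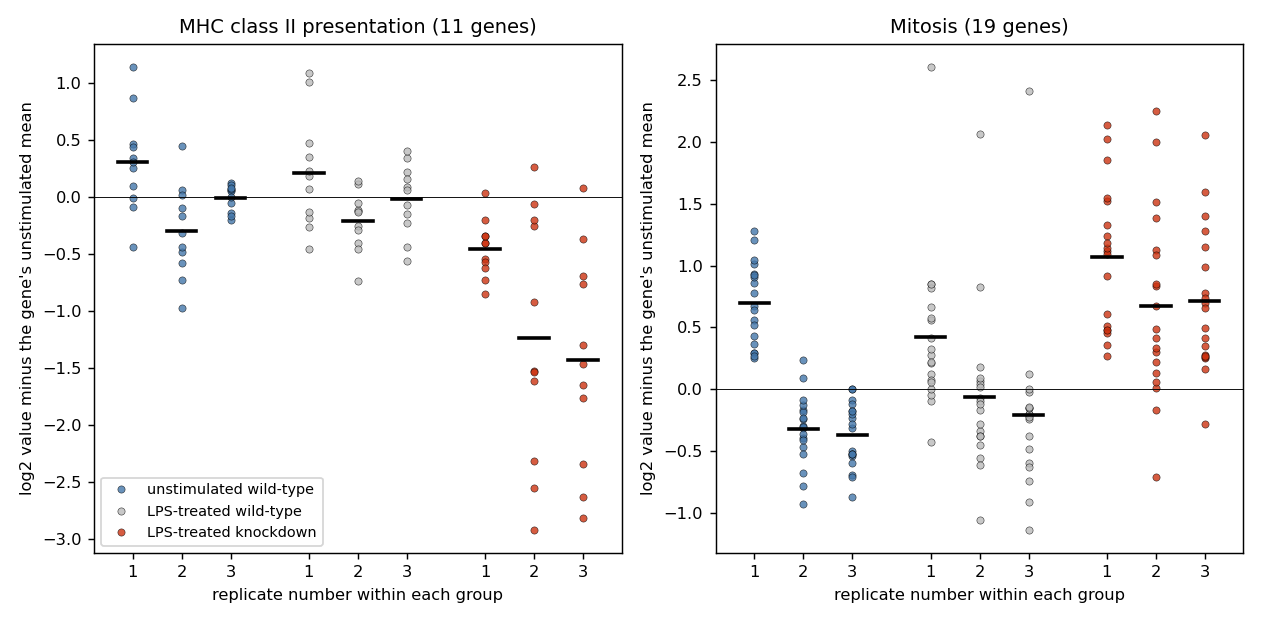
Values of 11 class II presentation genes (left) and 19 mitosis genes (right) on each array, as log2 differences from the gene's own unstimulated mean; each point is 1 gene, each bar the mean over genes, and the horizontal axis gives the replicate number within each coloured group. Knockdown replicates 2 and 3 lie lowest for class II genes, with replicate 1 nearer the unstimulated arrays, and unstimulated replicate 1 lies above replicates 2 and 3 for mitosis genes, at list means of 8.60, 7.58 and 7.53.

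Of 17 genes that restrain growth, 6 fell and 1 rose, with a median of -0.76. This list too was chosen with earlier results of these data known, so its falls add no separate support. Sesn1, a stress-induced brake on mTORC1, read 11.45, 10.33 and 11.83 against 9.14, 8.87 and 8.90 (difference -2.24, SE 0.28, adjusted p = 0.0043). Tsc22d3, the glucocorticoid-induced leucine zipper, fell by 1.61 (SE 0.17, adjusted p = 0.0026) and Ypel3 by 1.57 (SE 0.17, adjusted p = 0.00248). The groups did not overlap in any of these. Sesn3 (-1.19, adjusted p = 0.0522) and Pik3ip1 (-1.09, adjusted p = 0.0744) did not pass. Without unstimulated replicate 2 the list had 10 falls. In the survival genes, 3 of 14 rose and 2 fell, and beside the fall of Bcl2 stood the caspase-8 regulator Cflar, at 10.41, 10.52 and 10.59 against 12.10, 12.13 and 12.17 (rise 1.63, SE 0.06, adjusted p = 0.000206).

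Unfolded protein response genes were lower in 7 of 15 cases and higher in 0 (median -0.31). Sdf2l1, a chaperone partner of the endoplasmic reticulum, gave 12.49, 12.27 and 12.56 against 11.74, 11.51 and 11.74 (difference -0.78, SE 0.09, adjusted p = 0.00315). Xbp1, the transcription factor of the response, fell by 0.41 (SE 0.08, adjusted p = 0.0176). With arrays centred on their medians 3 of the 15 were called, without either knockdown replicate 1 or 3 or unstimulated replicate 3 the count was 2, without unstimulated replicate 1 it was 1, and without wild-type LPS replicate 3 it was 3. ATF4 amino acid stress genes gave 5 rises and 3 falls in 19, with the serine synthesis enzyme Phgdh (0.91) and the cystine carrier Slc7a11 (1.07) among the rises. Without knockdown replicate 1 or 3 or unstimulated replicate 1 or 3 there were 2 rises, and without wild-type LPS replicate 3 there were 3. The falls dropped to 1 without wild-type LPS replicate 1 or 3 or unstimulated replicate 1 or 3, and with arrays centred on their medians.

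Inflammatory mediators gave 7 rises and 0 falls in 17 (median 1.16). Beside Ptgs2, the prostaglandin E synthase Ptges rose by 1.71 (SE 0.17, adjusted p = 0.00201). Nos2, the inducible nitric oxide synthase, did not pass: it read 7.06, 10.24 and 7.04 in unstimulated and 10.05, 10.13 and 9.92 in knockdown arrays (difference 1.92, adjusted p = 0.0759), with unstimulated replicate 2 at the level of the knockdown arrays. The list had 11 rises without that array, 4 without wild-type LPS replicate 1 and 3 without unstimulated replicate 1 or 3, knockdown replicate 1 or 3, or wild-type LPS replicate 3.

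Innate sensors gave 7 rises and 2 falls in 19. Nlrp3, the inflammasome scaffold, gave 10.28, 10.36 and 10.46 against 12.29, 11.98 and 12.42 (rise 1.86, SE 0.11, adjusted p = 0.000387), and Nlrc4 (1.26), Nod2 (1.17) and Tlr2 (1.46) rose as well. Feedback regulators gave 4 rises and 3 falls in 15: Dusp16 (1.48), Socs3 (1.46) and Dusp2 (1.10) rose and Socs2 fell by 1.54. The list gave 1 rise without unstimulated replicate 3 and 2 without knockdown replicate 3, and 1 fall without any of unstimulated replicate 1 or 3, knockdown replicate 1 or 3, or wild-type LPS replicate 1 or 3. Maff, a small bZIP factor, rose by 2.75 (SE 0.33, adjusted p = 0.0037), and 4 of 18 AP-1 and immediate-early genes rose and 0 fell. The AP-1 count was 2 without knockdown replicate 1 or 3 or unstimulated replicate 1 or 3. Of 9 mRNA decay factors 3 rose, Zc3h12a (1.86), Zc3h12c (1.75) and Zfp36 (0.91), and Zfp36l1 fell by 1.10.

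Adhesion molecules moved in both directions, 7 up and 6 down in 17, and without the replicate block 3 were down. Icam1 gave 11.70, 11.65 and 11.73 against 13.09, 13.06 and 12.97 (rise 1.35, SE 0.08, adjusted p = 0.000517) and Itga5 rose by 1.44, whereas Itgam (CD11b) fell by 0.82 (SE 0.06, adjusted p = 0.000934). Without knockdown replicate 3 the list gave 2 rises and 3 falls, without unstimulated replicate 3 it gave 3 and 3, and without unstimulated replicate 1, knockdown replicate 1 or wild-type LPS replicate 3 it gave 3 falls. Matrix proteases gave 2 rises and 5 falls in 16, with Timp2, an inhibitor of them, at -2.27 and Plau at -1.18. The 2 rises became 0 without unstimulated replicate 1 or 3, knockdown replicate 1 or 3, or wild-type LPS replicate 1 or 3, and 4 without unstimulated replicate 2. The falls dropped to 1 without unstimulated replicate 3, to 2 without unstimulated replicate 1 or knockdown replicate 3, and to 3 without wild-type LPS replicate 3 or with arrays centred on their medians.

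Of 14 p53 targets, 4 rose and 3 fell (median -0.02), 2 in each direction by 2-fold or more. Plk2, a polo-like kinase, gave 8.35, 7.79 and 8.14 against 11.20, 9.96 and 11.14 (rise 2.67, SE 0.17, adjusted p = 0.000544), and the death receptor Fas rose by 1.74 (SE 0.17, adjusted p = 0.00216). Sesn1 and Trp53inp1 (-1.46, SE 0.32, adjusted p = 0.0273) fell. Without unstimulated replicate 1 or 3, knockdown replicate 3 or wild-type LPS replicate 3 the list gave 2 rises and 1 fall. Fc and complement receptors gave 2 rises and 3 falls in 15. The complement receptor C3ar1 read between 13.29 and 13.45 in the unstimulated arrays and lower, without overlap, in the knockdown arrays (difference -1.57, SE 0.21, adjusted p = 0.00524). Without unstimulated replicate 3 or knockdown replicate 3 the list gave 1 rise and 1 fall, and without the replicate block 1 rise.

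Glycolysis and hypoxia genes gave 3 rises and 2 falls in 20, the respiratory chain 0 and 2 in 24 (Ndufa1 -1.09, Sdhb -0.56), and the lysosome 1 and 3 in 20. Over all genes 5.62% rose and 8.65% fell. The falls in glycolysis and the respiratory chain and the rise in the lysosome lay near those shares. With single arrays left out, glycolysis and hypoxia ranged from 1 to 6 rises and 0 to 2 falls, and the lysosome reached 0 in both directions. Regulators of H3K9 methylation gave 1 rise, near the share over all genes, and 3 falls in 20. In these, the methyltransferase Setdb1 fell by 0.64 (adjusted p = 0.0143) and the demethylase Kdm1a rose by 0.49 (adjusted p = 0.0114). Their falls numbered 0 without knockdown replicate 1 or unstimulated replicate 1, 1 without knockdown replicate 3 or unstimulated replicate 3, and 6 without unstimulated replicate 2. Of 10 reference genes, Hprt rose by 0.46 and Gusb fell by 0.52, and the median was -0.04.

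MicroRNA genes are named here after their values were seen. Of 300 measured, 7 were higher and 0 lower (2.333% against 5.62% of all genes called higher), with a median of 0.035. The mature sequences of the 4 with the largest rises follow, from RefSeq (GRCm38.p6), with the seed, bases 2 to 8, in capitals; the arm printed is the one most often used as the guide strand, and the arrays read the gene rather than the mature RNA.
miR-155-5p: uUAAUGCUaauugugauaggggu
miR-146a-5p: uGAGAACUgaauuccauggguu
miR-221-3p: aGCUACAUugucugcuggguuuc
miR-222-3p: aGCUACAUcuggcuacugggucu
The seeds of miR-221-3p and miR-222-3p are the same, GCUACAU, and their genes lie close together on chromosome X. Mir155, whose product tunes inflammatory signalling, gave 6.97, 8.47 and 6.83 against 10.55, 10.60 and 10.60 (rise 3.16, SE 0.35, adjusted p = 0.00295). The pair Mir222 and Mir221 rose by 2.39 (SE 0.14, adjusted p = 0.000387) and 2.22 (SE 0.11, adjusted p = 0.000342). Mir221 read 7.10, 7.43 and 7.20 before and 9.55, 9.49 and 9.35 in the treated knockdown cells, and Mir222 read 6.93, 6.92 and 6.83 and then 9.12, 9.74 and 8.98. Mir146, which encodes miR-146a, a brake on Toll-like receptor signalling, rose by 1.79 (SE 0.31, adjusted p = 0.012). All 4 had knockdown values above every unstimulated value. Smaller rises were called in Mir674 (0.59), Mirlet7i (0.42) and Mir130b (0.29).

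Genes were also picked for a named pattern over all 3 groups. The comparisons share arrays, so their values are a description with no test. The first pattern was a called difference of at least 2-fold in the LPS-treated knockdown cells with a wild-type LPS mean close to the unstimulated one, and the 6 closest in each direction were taken. Those higher were Prc1, Prr11 and Pclaf, which act in cell division, and Enpp5, Agmo and Il18. Il18, a cytokine cleaved by inflammasomes, gave 9.08, 8.42 and 9.31 unstimulated, 8.52, 9.25 and 9.16 in LPS-treated wild-type and 10.42, 10.59 and 10.82 in LPS-treated knockdown cells. Agmo, which cleaves ether lipids, gave 5.05, 4.94 and 5.25, then 5.09, 4.99 and 5.22, then 6.20, 6.91 and 7.01. In both genes the knockdown arrays alone were high.

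The 6 closest among those lower were Irf4, H2-Aa, Cd74, Lhfp, Zfp36l1 and Ifitm3. Their wild-type LPS means lay at most 0.043 from the unstimulated means, and H2-Ab1, at 0.053, was the third gene after them. Irf4 gave 10.86, 9.25 and 9.92 in LPS-treated wild-type cells, close by number to the unstimulated 10.74, 9.31 and 10.08. Lhfp gave 9.99, 10.31 and 9.95, then 10.07, 10.06 and 10.25, then 8.89, 8.74 and 7.86. Ifitm3, which restricts virus entry, differed by number more than by group in wild-type cells, at 12.95, 13.68 and 12.95 and then 12.92, 13.56 and 13.05, with 11.64, 13.00 and 11.76 in the knockdown arrays. Its knockdown replicate 2 overlapped the unstimulated range. Without the replicate block Prc1, Prr11, Enpp5, Cd74, H2-Aa, Zfp36l1 and Ifitm3 were not called, with adjusted p from 0.063 (Zfp36l1) to 0.39 (Enpp5).

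The second pattern was a wild-type LPS mean at least 2-fold from unstimulated with the LPS-treated knockdown mean close to unstimulated. Wild-type LPS values were high in Pla1a, Cd83, Mab21l3, Tlr1 and Rapgef2 and low in Dhcr7, Sh2d1b1 and Acp6. Cd83, a maturation marker, gave 8.60, 7.98 and 7.51 unstimulated, 10.55, 9.39 and 9.50 in LPS-treated wild-type and 8.68, 7.44 and 7.94 in LPS-treated knockdown cells. Pla1a, a phospholipase, gave 7.82, 8.23 and 7.83, then 9.91, 9.82 and 9.99, then 8.36, 7.57 and 7.98. Sh2d1b1, a SLAM receptor adaptor, gave 10.67, 10.00 and 10.88, then 7.75, 8.41 and 8.53, then 10.27, 10.92 and 10.45. In each of the 3 the wild-type LPS arrays stood alone. The 95% intervals of the knockdown against unstimulated difference ran from -0.41 to 0.39 for Cd83, from -0.48 to 0.50 for Pla1a and from -0.63 to 0.70 for Sh2d1b1.

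**Figure D4:**
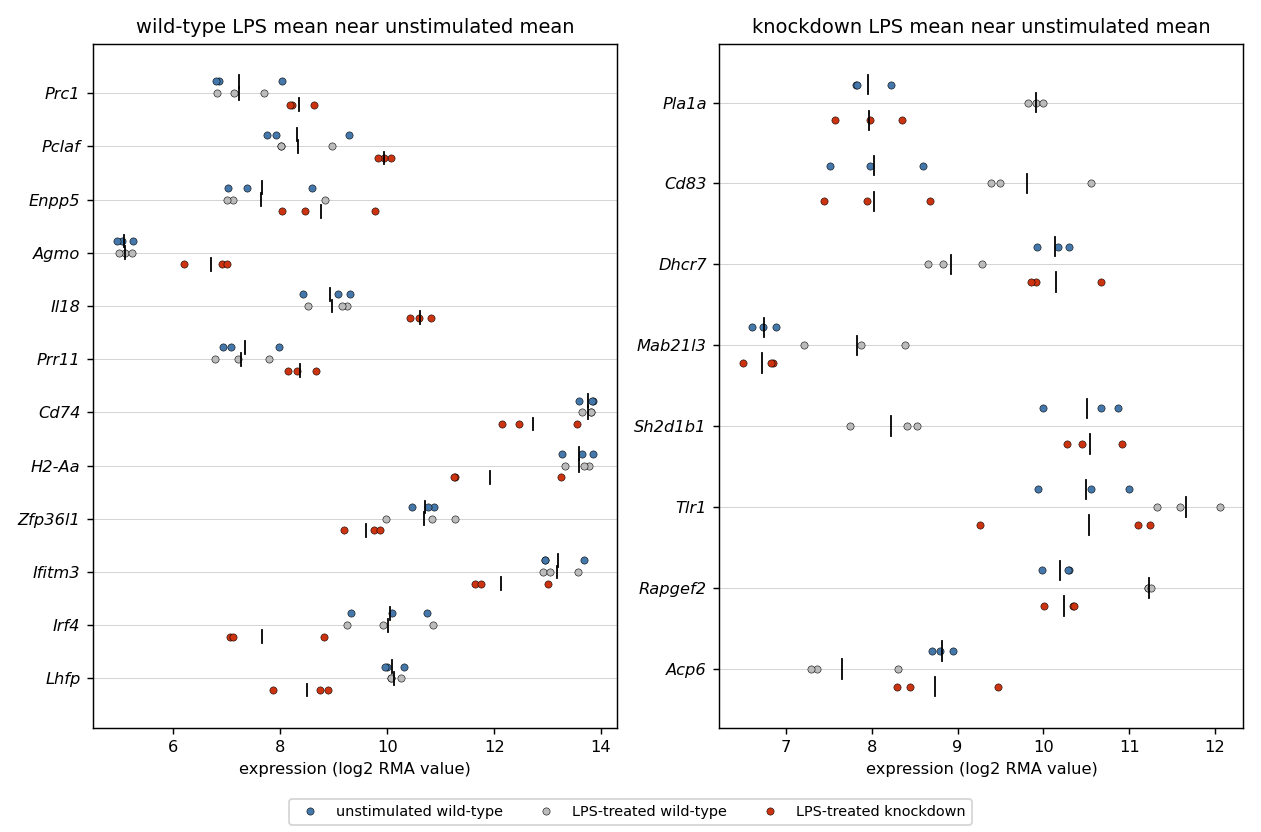
Log2 RMA values of genes picked for a wild-type LPS mean near the unstimulated mean (left) and for an LPS-treated knockdown mean near the unstimulated mean (right); each point is 1 array, bars are means of 3, and colours give the group. On the left the red means are shifted, as for Il18 at 10.42 to 10.82, with red and blue points overlapping for Enpp5 and Ifitm3; on the right the grey means are shifted, as for Pla1a at 9.82 to 9.99, with a red point of Tlr1 (11.24) beside the lowest grey one (11.33).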

How the data were processed

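RNA from 9 cultures (3 groups of 3) was measured on Affymetrix mouse gene arrays. The deposited values are log2 values made by the authors with RMA (version not stated), per the submitters' processing notes; no further normalization was applied. Array medians over genes lay between 7.54 and 7.66. Of 35556 probe sets, 21789 named a single gene, 1621 several and 12146 none; symbols were matched through RefSeq (GRCm38.p6) for 21698. The probe set with the highest mean stood for each of 19938 genes. A limma 3.58.1 model (R 4.3.3) with group means and the replicate number as a block was fitted to all 9 arrays, with empirical Bayes (residual df 4, prior df 2.77), two-sided tests and Benjamini-Hochberg adjustment over all genes; a call is an adjusted p under 0.05. Errors are standard errors. It was tested on simulated data. The comparison is paired by number, and deviations of same-numbered arrays from their group means correlated across genes at 0.138 to 0.481 in all 9 pairs (different numbers -0.414 to 0.254), which is where the pairing was checked. The number of arrays limits the precision.

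Named genes were the 12 largest rises and falls among called genes with values apart, up to 4 called and 3 uncalled members per list, the genes of both patterns, and up to 6 large uncalled ones. The members and 40 lists (643 of 695 genes measured) were chosen with earlier results of these data known. Alternatives were no block, the 2 groups alone, quantile and median scaling, no dim genes, mean probe sets, a variance trend, and leaving out arrays.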

Additional observations from a re-analysis of the deposited data

Results flagged for a closer look

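Probe sets outside the gene comparison carried signal in the same contrast. Of 12146 probe sets that name no gene in the platform's table, 554 differed between the LPS-treated knockdown and unstimulated arrays (4.56%), 333 higher and 221 lower (limma, adjusted p under 0.05). Of 1621 that name several genes, 116 differed (7.16%), 60 higher and 56 lower. Both stand out because no comparison of named genes uses them. Their shares come from a fit and adjustment over all 35556 probe sets. They are therefore not on the same footing as the 14.3% of genes called above. The identity of these probe sets was not examined.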

How the results depend on the processing

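The counts of 1121 risen and 1725 fallen genes moved with the fit. With no replicate block they were 843 and 1323 (795 and 1255 shared with the blocked fit), and 285 and 311 at 2-fold or more. The 6 arrays of both groups alone gave 642 and 903, where fewer arrays estimate the spread. In that fit 42 of 64 list counts fell by more than 1.5-fold or to 0, 21 stayed within that limit and 1 rose beyond it. Centring arrays on their medians gave 1113 and 1148 (median difference over all genes 0.0417), quantile normalization 1344 and 1655. Leaving out dim genes (1150 and 1806), averaging probe sets (1117 and 1717) and a variance trend (1106 and 1640) moved them less. Over fits that left out 1 array or 1 replicate number, risen genes ranged from 90 to 1522 and fallen genes from 63 to 2844, and at 2-fold or more from 85 to 394 and from 61 to 584; the lowest were without replicate number 3 and the highest without number 2, except the highest 2-fold fall (584), without unstimulated replicate 2. Among named genes called in the main or the alternative fit, the only reversal was Dhcr7 (0.01). It stood at -0.35 without replicate number 2 and up to 0.22 without unstimulated replicate 1. Sign changes in genes called in neither fit were not counted as reversals. The cause was not tested. With 3 arrays a group, genes of wide spread such as Saa3 and Nos2 cannot be settled, and no array separates the hairpin from LPS.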

Other observations

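Several genes outside the lists had large differences and were chosen after their values were seen. Treml4, a myeloid receptor of the TREM family, gave 8.68, 8.15 and 9.01 in unstimulated and 12.45, 12.67 and 12.96 in LPS-treated knockdown arrays (rise 4.08, SE 0.27, limma adjusted p = 0.000657), with a wild-type LPS mean 2.29 above unstimulated. Calcrl, a receptor subunit for calcitonin-family peptides, rose by 3.42 (SE 0.18), and Prdm1, the repressor Blimp-1, by 2.40 (SE 0.12). The iron regulator Hamp rose by 2.25 and the caveola protein Cav1 by 2.55. Inhba, a subunit of activins, gave 9.45, 12.71 and 9.31 against 13.40, 13.83 and 13.51 (rise 3.09, SE 0.63, adjusted p = 0.0219), and Acod1, which makes itaconate, 9.60, 13.02 and 9.42 against 14.02, 14.11 and 14.05 (rise 3.38, SE 0.73, adjusted p = 0.0257). In both, unstimulated replicate 2 was far above replicates 1 and 3. Nrg4, a growth factor of the neuregulin family, rose by 2.44 (SE 0.20), with a wild-type LPS mean 0.68 above unstimulated, and Flvcr2, a membrane transporter, by 2.56 (SE 0.46), with 0.17.

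Among falls, Thy1 gave 12.30, 12.95 and 12.36 against 10.61, 10.46 and 8.94 (difference -2.53, SE 0.33, adjusted p = 0.0045), and Antxr1, an anthrax toxin receptor, 10.12, 10.30 and 9.89 against 7.90, 7.45 and 7.29 (difference -2.56, SE 0.27, adjusted p = 0.0026). The lectins Cd209a and Mgl2 fell in each pair (differences -2.60 and -2.26), yet unstimulated replicate 2 was already low, at 7.70 against 12.49 and 11.86 for Cd209a and at 7.30 against 11.64 and 11.29 for Mgl2. Their groups overlapped, and without the replicate block their adjusted p was 0.34 and 0.38. S1pr1, the receptor that guides exit from tissues, fell by 2.34 (SE 0.30), Cd28 by 2.30 (SE 0.32), Nrp1 by 2.05 (SE 0.36), St6gal1 by 2.36 (SE 0.25) and Ccnd1, cyclin D1, by 2.00 (SE 0.24). The Ccnd1 and Nrp1 groups overlapped, and their adjusted p without the block was 0.074 and 0.056.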
